A study of Mus musculus with 20 samples.

Results

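The genes of reticulocyte maturation and organelle clearance examined here were Bnip3l, Ulk1, Fundc1, Trim58, Trim10, Ube2o, Xpo7, Riok3 and Tent5c, found by gene symbol as 9 of the 55486 genes counted. RNA was sequenced from bone marrow of tibia and femur and from kidney of male and female C57BL/6 mice, 10 weeks old when assigned to groups per the study's methods. One group in each tissue was given oxaliplatin, a platinum chemotherapy drug, at 10 mg/kg in 5% dextrose by intraperitoneal injection for 8 weeks, and the vehicle group was given 5% dextrose. Each of the 4 groups had 5 libraries labelled as biological replicates, 20 in all. The sources used here named no tumour or engineered allele for these animals.

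Bone marrow totals ran from 30660153 to 41140527 counts per library and kidney totals from 24393007 to 30925430. The sampled tissues matched their labels, since 8 kidney tubule genes summed to between 16742.1 and 28898.8 CPM in kidney libraries while the same genes reached 11.7 CPM at most in marrow. CPM, the usual count of reads per fixed library total, was scaled by the trimmed mean of M values (TMM), which corrects the totals for a few very abundant genes. Kidney and marrow RNA were extracted by different protocols, so a difference in level between the tissues cannot be told apart from one between protocols. Treatment comparisons were made inside each tissue. The oxaliplatin-treated marrow libraries 3 and 4 stood apart in neutrophil genes and the oxaliplatin-treated kidney libraries 2 and 4 in hemoglobin genes, and values without them are given beside the results they touch. Treated kidney libraries 1 and 5 were far below the vehicle range in hemoglobin genes, and no fit without that pair was made.

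The last steps of red cell formation dismantle the cell. The late erythroblast condenses its chromatin and expels its nucleus, and the resulting reticulocyte then degrades its mitochondria, ribosomes and other organelles by autophagy and by the ubiquitin-proteasome system while it completes hemoglobin synthesis. Bnip3l (NIX) is the mitochondrial receptor that delivers mitochondria to autophagosomes in reticulocytes, Ulk1 is the kinase that starts autophagosome formation, and Fundc1 is another mitophagy receptor of the outer mitochondrial membrane. Trim58 and Trim10 are ubiquitin ligases of the tripartite motif family that are induced in late erythropoiesis, and Ube2o is a ubiquitin-conjugating enzyme with ligase activity that marks ribosomal proteins for destruction. Xpo7 is a nuclear export receptor needed for erythroid chromatin condensation, Riok3 is an atypical kinase that takes part in enucleation, and Tent5c (Fam46c) is a poly(A) polymerase that stabilises messenger RNAs and is also known from plasma cells.

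Windows around the RefSeq start of 4 members are shown, because Trim10, Trim58 and Tent5c fell in treated marrow and Fundc1 did not pass the test. These were chosen after the values were seen. They come from RefSeq on GRCm38.p6, and each runs from 250 bases before to 50 bases after the RefSeq transcription start. Windows of 5 of the 9 members were searched. Trim10 lies at chr17:36869324-36869623 on the plus strand, Trim58 at chr11:58640215-58640514 on the plus strand, Tent5c at chr3:100489143-100489442 on the minus strand and Fundc1 at chrX:17571958-17572257 on the minus strand. The Fundc1 window lies wholly inside the annotated gene span (chrX:17556564-17572325), past its annotated start. Its matches are therefore within the gene and not upstream of that start. Capitals mark matches on either strand to the GATA motif AGATAA, which is the reverse complement of TTATCT, or to the Krüppel-like factor motif CCNCNCCC. TGATAA was searched as well, and no matches in these windows overlapped. Other forms of the GATA motif, such as AGATAG, were not searched and are not marked.
Trim10: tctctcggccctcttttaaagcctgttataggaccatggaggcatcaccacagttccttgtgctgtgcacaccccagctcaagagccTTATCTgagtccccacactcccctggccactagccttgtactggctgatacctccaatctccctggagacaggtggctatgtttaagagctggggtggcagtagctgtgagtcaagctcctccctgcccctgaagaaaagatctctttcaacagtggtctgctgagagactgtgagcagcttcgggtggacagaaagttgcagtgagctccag
Trim58: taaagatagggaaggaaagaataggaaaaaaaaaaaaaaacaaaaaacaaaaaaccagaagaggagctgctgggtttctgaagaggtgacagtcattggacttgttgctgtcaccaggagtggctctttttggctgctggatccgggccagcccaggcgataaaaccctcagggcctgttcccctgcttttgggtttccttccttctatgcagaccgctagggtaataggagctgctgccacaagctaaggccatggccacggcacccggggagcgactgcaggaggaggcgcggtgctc
Tent5c: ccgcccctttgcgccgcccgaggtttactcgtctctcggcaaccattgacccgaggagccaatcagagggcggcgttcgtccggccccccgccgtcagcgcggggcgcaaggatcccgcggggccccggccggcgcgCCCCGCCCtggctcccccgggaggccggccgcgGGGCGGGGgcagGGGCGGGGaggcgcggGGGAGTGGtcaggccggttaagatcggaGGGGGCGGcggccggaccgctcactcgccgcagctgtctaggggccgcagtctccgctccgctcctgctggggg
Fundc1: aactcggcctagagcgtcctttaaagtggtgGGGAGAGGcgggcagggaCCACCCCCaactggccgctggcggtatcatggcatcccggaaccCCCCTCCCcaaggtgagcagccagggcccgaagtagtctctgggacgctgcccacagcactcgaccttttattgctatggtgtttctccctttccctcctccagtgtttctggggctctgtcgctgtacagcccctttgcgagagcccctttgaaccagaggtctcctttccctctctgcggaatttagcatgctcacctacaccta
The Trim10 window held 1 AGATAA, a motif found in 11.2% of 32851 mouse promoters of this length, and none of the 5 members searched held TGATAA, found in 9.05%. The CCNCNCCC motif occurred 5 times in Tent5c, 3 times in Fundc1 and 3 times in Ulk1, whose window is not printed, and at least once in 49.5% of all promoters. The windows of Trim10 and Trim58 did not contain it. These matches describe the letters of the windows and were not tested for binding.

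In bone marrow, 7 of the 9 genes were lower after oxaliplatin, none was higher, and the drop ranged from 1.76-fold for Ulk1 to 7.18-fold for Trim10. Trim10, Xpo7 and Tent5c fell most, Ube2o and Trim58 followed, and the autophagy genes Bnip3l and Ulk1 fell least. Riok3 and Fundc1 were not called. A gene was called when the edgeR quasi-likelihood test gave a Benjamini-Hochberg adjusted p under 0.05 over all 22363 genes tested and the change exceeded 1.5-fold. By that rule 23.3% of all genes tested were called and 11.8% were called lower. The median log2 fold change was -1.63 over the 9 members and -0.04 over all genes tested. In bulk marrow, fewer cells of a type and less RNA per cell cannot be told apart. Beside these results, the summed CPM of 21 late erythroid genes (hemoglobins, band 3, spectrins and the like) ran from 36888.7 to 61655.5 in vehicle mice and from 5318.9 to 12142.0 in treated mice, with all 21 genes called lower. Among 17 early erythroid genes, 15 were called lower.

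**Figure D1:**
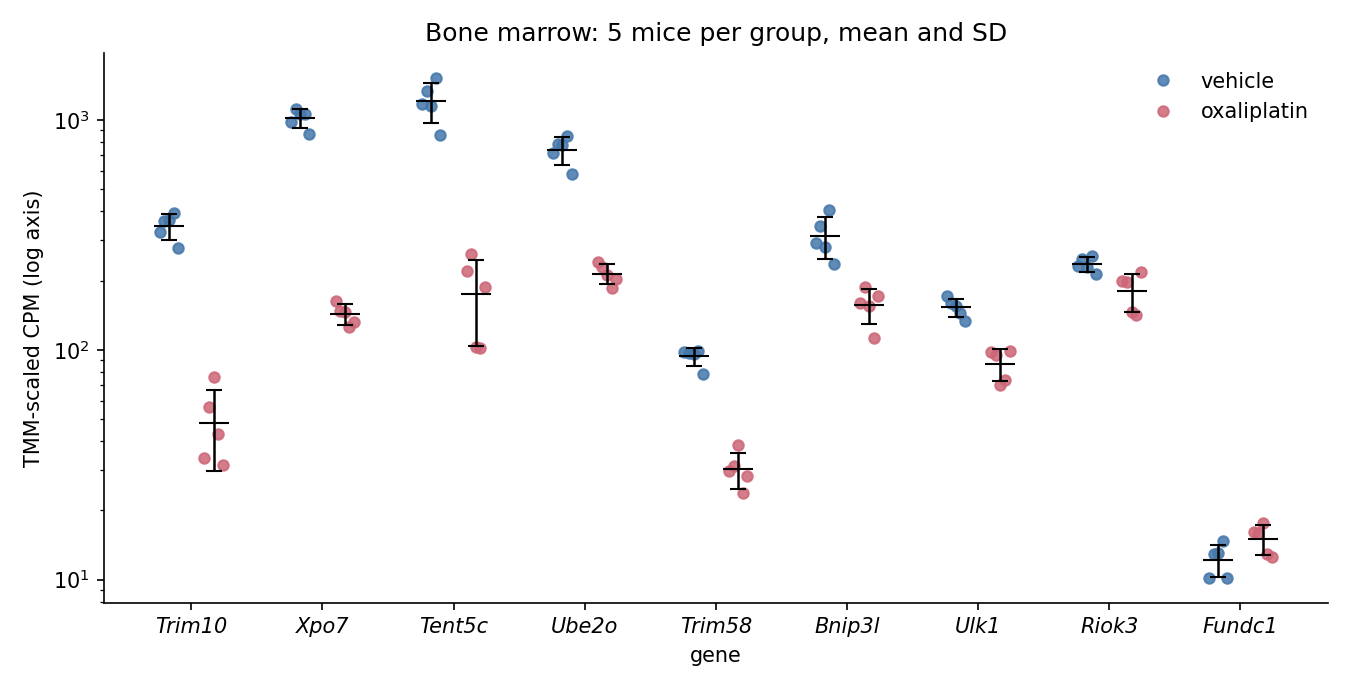
TMM-scaled CPM of the 9 genes in bone marrow on a log axis, 1 point per mouse, with the mean and SD of 5 mice per group. The vehicle and oxaliplatin points are separate for the 7 leftmost genes and overlap for Riok3 and Fundc1.

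Among the ubiquitin enzymes, Trim10 (ENSMUSG00000073400, chr17:36869574-36877833, plus strand of GRCm38) measured 326, 364, 368, 393 and 278 CPM in vehicle mice 1 to 5. In the oxaliplatin-treated mice it measured 33.7, 56.6, 76.1, 43.1 and 31.5 CPM. Every treated mouse was thus far below the lowest vehicle mouse, with mouse 3 the highest of the treated group. The log2 fold change was -2.84 (SE 0.23, edgeR adjusted p = 2.0e-06).

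Trim58 (ENSMUSG00000037124, chr11:58640465-58652404, plus strand), whose protein binds the motor dynein during enucleation, was at 97.9, 96.5, 96.3, 98.7 and 78.6 CPM in vehicle marrow and at 29.6, 31.3, 38.4, 23.7 and 28.1 CPM in treated marrow. The groups were well separated, vehicle mouse 5 lay apart from the tight remainder of its group, and treated mouse 3 was again the highest. Trim58 fell by 1.63 on the log2 scale (SE 0.12, edgeR adjusted p = 9.2e-07).

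Ube2o (ENSMUSG00000020802, chr11:116537740-116581447, minus strand) was at 720, 782, 775, 854 and 579 CPM in vehicle mice and at 240, 228, 212, 185 and 203 CPM in treated mice. Treated mice lay close together, and the groups did not come near each other. Its log2 fold change was -1.80 (SE 0.12, edgeR adjusted p = 4.4e-07). The annotation places Gm11742 on the opposite strand within the Ube2o span, and whether counting used strand was not given in the sources used here.

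Xpo7 (ENSMUSG00000022100, chr14:70654246-70766628, minus strand) measured 977, 1110.5, 1063.6, 1059.4 and 864 CPM in vehicle mice and 163, 148, 146, 126 and 132 CPM in treated mice. This nuclear export receptor had the smallest adjusted p of the 9 genes, with a log2 fold change of -2.83 (SE 0.11, edgeR adjusted p = 1.3e-08). The span overlaps Dok2 and Gm49244 on the opposite strand and Npm2 on the same strand, so reads in the shared stretches are uncertain. Riok3 (ENSMUSG00000024404, chr18:12128741-12157387, plus strand), the kinase of enucleation, was at 232, 248, 228, 257 and 213 CPM against 200, 197, 146, 142 and 217 CPM. Treated mouse 5 was above vehicle mouse 5, and the log2 fold change of -0.39 (SE 0.13, edgeR adjusted p = 0.0326) was under 1.5-fold. An adjusted p under 0.05 at any fold was reached by 33.1% of all genes tested.

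Tent5c (ENSMUSG00000044468, chr3:100451628-100489324, minus strand), the poly(A) polymerase, had the highest mean CPM of the members in vehicle marrow, at 1177.3, 1335.2, 1151.0, 1521.8 and 862 CPM. After oxaliplatin it was at 220, 262, 103, 102 and 188 CPM. The treated mice split into a lower pair, mice 3 and 4, and 3 higher mice, but none approached the vehicle range. Its log2 fold change was -2.79 (SE 0.28, edgeR adjusted p = 9.9e-06). Over 6 plasma cell genes, 3 were called higher, and their summed CPM rose from between 250 and 306 to between 429 and 711. The part of plasma cells in the Tent5c level was not tested.

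Of the autophagy genes, Bnip3l (ENSMUSG00000022051, chr14:66985239-67008877, minus strand) measured 292, 347, 280, 404 and 237 CPM in vehicle mice and 160, 187, 155, 113 and 171 CPM in treated mice. Its log2 fold change was -0.99 (SE 0.16, edgeR adjusted p = 3.5e-04). All treated mice were below all vehicle mice, with a narrower gap than for the genes above. Ulk1 (ENSMUSG00000029512, chr5:110784488-110810097, minus strand) was at 171, 159, 155, 145 and 134 CPM against 97.4, 94.9, 70.4, 73.5 and 98.9 CPM, a log2 fold change of -0.81 (SE 0.12, edgeR adjusted p = 1.4e-04). Fundc1 (ENSMUSG00000025040, chrX:17556564-17572325, minus strand) was the least abundant, at 10.2, 12.9, 13, 14.7 and 10.2 CPM against 16.1, 15.9, 17.7, 12.9 and 12.5 CPM. These ranges overlapped, and its log2 fold change was 0.30 (SE 0.14, 95% interval -0.01 to 0.61, edgeR adjusted p = 0.135), an interval that includes a rise of just over 1.5-fold but no fall beyond -0.01.

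The 7 called genes were also the 7 whose marrow groups did not overlap, where 13.5% of all genes tested were lower with no overlap. All 7 kept their call when any single marrow library was left out and when treated mice 3 and 4 were both left out.

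Levels of different genes were compared as CPM per kilobase of exon, taking all annotated exons of a gene together. That length was 19005 bases for Xpo7 and 10963 for Riok3, against 2353 for Fundc1. Where transcripts use only part of these exons, the level per kilobase is understated. In vehicle marrow the order ran Tent5c (198 ± 40, SD, n = 5), Trim10 (154 ± 20), Ube2o (140 ± 19.5), Bnip3l (80.9 ± 16.8), Xpo7 (53.4 ± 5.11), Trim58 (42.7 ± 3.85), Ulk1 (23.5 ± 2.15), Riok3 (21.5 ± 1.56) and Fundc1 (5.19 ± 0.831). The ranges of Tent5c and Trim10, of Trim10 and Ube2o, and of Ulk1 and Riok3 overlapped, while the other neighbours were apart. In oxaliplatin-treated marrow Bnip3l (40.8 ± 7.13) and Ube2o (40.4 ± 4.05) came first and overlapped, followed by Tent5c (28.7 ± 11.7), Trim10 (21.5 ± 8.22), Riok3 (16.4 ± 3.14), Trim58 (13.8 ± 2.45), Ulk1 (13.4 ± 2.14), Xpo7 (7.52 ± 0.76) and Fundc1 (6.37 ± 0.959). There, only Ulk1 and Xpo7 were apart among neighbours. Tent5c thus passed from the top place to the third, and Xpo7 from the fifth to a level per kilobase overlapping that of Fundc1. Without division by length, the treated marrow means were 143 CPM for Xpo7 and 15 CPM for Fundc1.

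Whether the members fell more or less than erythroid genes of the same libraries was examined by scaling each library on the mean log2 level of an erythroid list instead of by TMM. Relative to the 21 late erythroid genes, Fundc1 (2.83, SE 0.17), Riok3 (2.19, SE 0.22), Ulk1 (1.76, SE 0.21), Bnip3l (1.57, SE 0.18), Trim58 (0.89, SE 0.14) and Ube2o (0.76, SE 0.17) were higher on the log2 scale after oxaliplatin. Since the late erythroid genes fell so far, 96.7% of all genes tested were called higher on this scale and 0.241% lower, so these 6 calls follow the great majority. The 3 members outside that majority were Trim10 (-0.38, 95% interval -0.67 to -0.08), Xpo7 (-0.28, 95% interval -0.63 to 0.08) and Tent5c (-0.22, 95% interval -0.80 to 0.37), none of them called. Their edgeR adjusted p values were 0.0163, 0.118 and 0.448. Scaled on the median of the list in place of its mean, the same 3 genes stood at 0.02, 0.14 and 0.24, so the sign of these small differences is not settled.

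Relative to the 17 early erythroid genes, which include the transcription factor Gata1 and the erythropoietin receptor Epor, Trim10 (-1.47, SE 0.14), Xpo7 (-1.33, SE 0.22) and Tent5c (-1.22, SE 0.35) were lower. The edgeR adjusted p values were 1.4e-06, 1.1e-04 and 0.0066. On this scale 79.3% of all genes tested were called higher and 1.19% lower. The early erythroid list also holds Nfe2, Tal1, Car1, Aqp1, Ermap and Cldn13. Whether its genes mark an early stage in these libraries was not tested. Ulk1 (0.71, SE 0.26), Riok3 (1.14, SE 0.27) and Fundc1 (1.77, SE 0.19) were higher, with adjusted p values of 0.0226, 0.00176 and 4.7e-06 by the same edgeR fit. Bnip3l (0.52, 95% interval 0.01 to 1.03), Trim58 (-0.18, 95% interval -0.55 to 0.20) and Ube2o (-0.29, 95% interval -0.76 to 0.18) were not called. Without treated mice 3 and 4, Bnip3l was called at 0.84 (edgeR adjusted p = 1.2e-04). Leaving out vehicle mouse 4, treated mouse 1 or treated mouse 5 took Ulk1 below the call, at 0.65, 0.54 and 0.57, while leaving out treated mouse 3 or 4 brought Bnip3l past it, at 0.66 and 0.64.

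**Figure D2:**
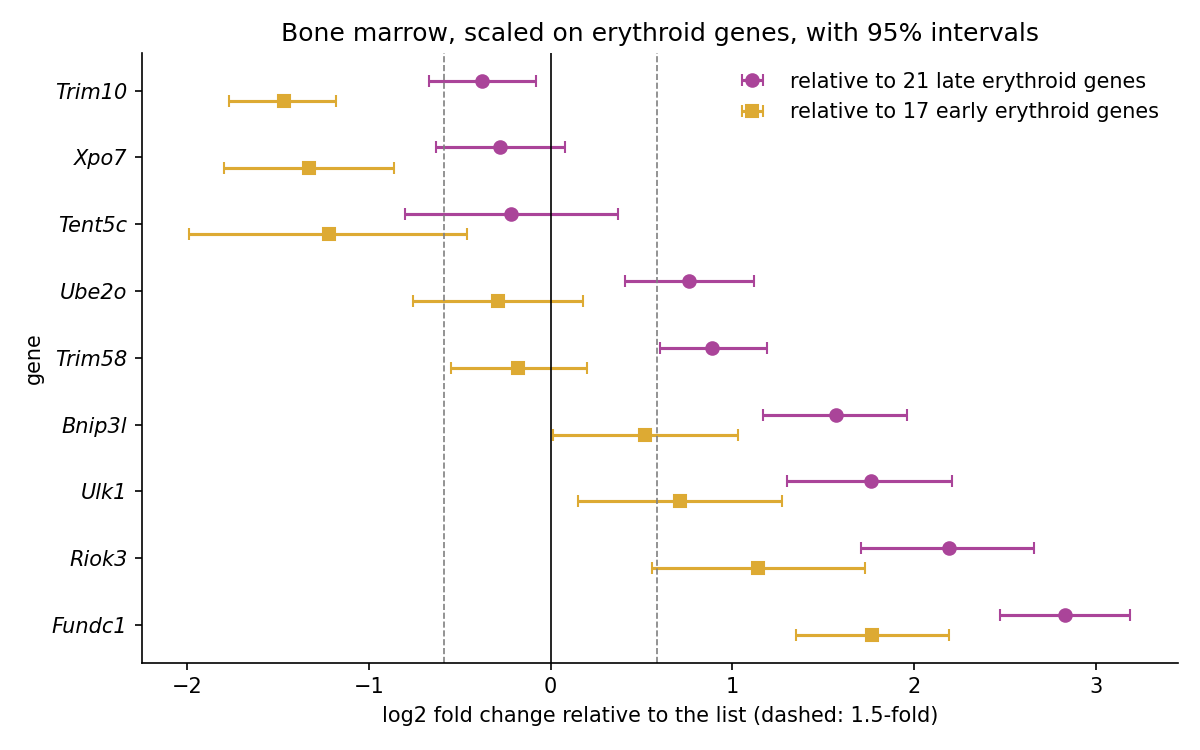
Log2 fold change of each member in bone marrow after scaling on 21 late (circles) or 17 early (squares) erythroid genes, with 95% intervals and dashed lines at 1.5-fold. Trim10, Xpo7 and Tent5c lie near 0 on the late scale and below the lower dashed line on the early scale, whereas Fundc1 and Riok3 are above 0 on both.

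The members also varied among mice of 1 group. Vehicle mouse 5 had the lowest value of its group for all 9 members, equalled by mouse 1 for Fundc1, and vehicle mouse 4 had the highest for 7 of them. The summed late erythroid genes were likewise lowest in vehicle mouse 5 (36888.7 CPM) and highest in vehicle mouse 4 (61655.5 CPM). Among treated mice, Trim10 and Trim58 were highest in mouse 3, in which the early erythroid genes also had their highest sum (4234.1 CPM against 1893.9 to 2811.9 CPM in the other treated mice). Tent5c, Riok3 and Ulk1 were instead lowest in mice 3 and 4. In the same mice the 10 neutrophil genes summed to 9699.3 and 11584.4 CPM, compared with 22050.0 to 27729.0 CPM in the other 3 treated mice and 19526.8 to 23851.2 CPM in vehicle mice. The 7 macrophage genes were also lowest of the treated group in mice 3 and 4, at 1178.8 and 1709.3 CPM against 2016.6 to 2664.9 CPM. The part of neutrophils and macrophages in the Tent5c, Riok3 and Ulk1 levels was not tested. With mice 3 and 4 left out the marrow log2 fold change was -2.44 for Tent5c, -0.65 for Ulk1 and -0.20 for Riok3, the last with an edgeR adjusted p of 0.087. Leaving the pair out took Trim10 to -3.09, Xpo7 to -2.78, Ube2o to -1.73, Trim58 to -1.66 and Bnip3l to -0.85.

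**Figure D3:**
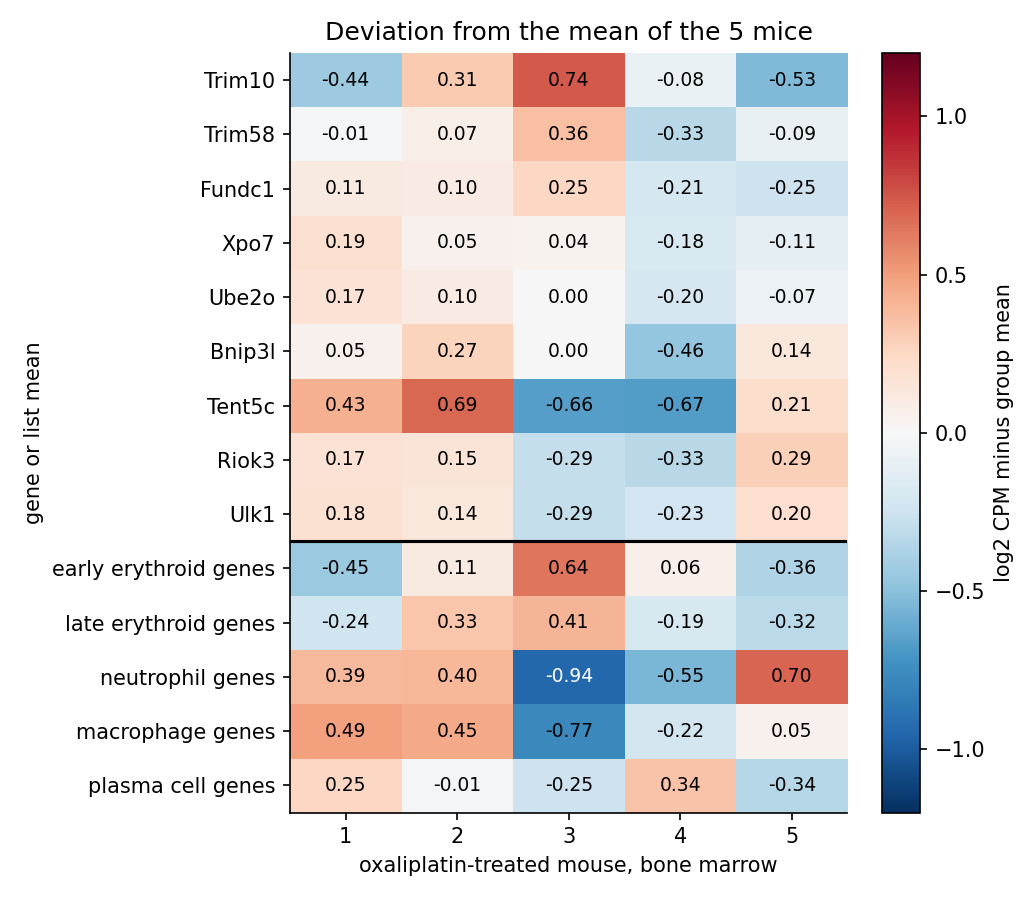
Deviation of each oxaliplatin-treated marrow library from the mean of the 5, in log2 CPM, for the 9 members and, under the line, for the mean of 5 marker lists. Mouse 3 is high for Trim10 (0.74) and the early erythroid genes (0.64), while mice 3 and 4 are low for Tent5c (-0.66 and -0.67) and the neutrophil genes (-0.94 and -0.55).

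Markers of other cell types moved in treated marrow as well. The summed CPM of 6 adipocyte genes went from between 76.2 and 143 to between 492 and 2460.5 with all 6 called higher, and that of 7 B cell genes from between 303 and 536 to between 91.9 and 139 with 6 called lower. Of 7 macrophage genes 4 were called higher, with sums of 964 to 1376.5 CPM in vehicle mice and 1178.8 to 2664.9 CPM in treated mice. None of the 10 neutrophil genes was called in either direction. None of these lists had a gene at or under the floor of 3 counts in all marrow libraries, and their part in the members' differences was not tested.

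Genes whose levels followed each member most closely were sought over the 10 marrow libraries after each group's mean was subtracted, among 12331 protein-coding genes. These libraries share depth and cell make-up, and each r is the highest of many over 10 libraries, so the values are a description. Tent5c was closest to Bpgm, the enzyme that makes the red cell metabolite bisphosphoglycerate (Pearson r = 0.982, Spearman rho = 1.000), and Bpgm fell by 3.29 on the log2 scale. Trim10 was closest to Slc25a38, a mitochondrial glycine carrier (r = 0.987, rho = 0.952), and then to Gpsm2 (r = 0.983, rho = 0.976). Riok3 was closest to Mocs1 (r = 0.988, rho = 0.988), Bnip3l to the mitochondrial fission gene Fis1 (r = 0.986, rho = 0.964), and Ulk1 to Uvssa (r = 0.948, rho = 1.000). For Trim58, Ube2o, Fundc1 and Xpo7 the closest genes were Bmp2k (r = 0.974, rho = 0.952), Fam126a (r = 0.969, rho = 0.939), Klhl11 (r = 0.981, rho = 0.782) and Mpc2 (r = 0.972, rho = 0.952). Slc25a38 (-1.44), Fam126a (-0.72) and Mocs1 (-0.63) were also called lower after oxaliplatin on the log2 scale. Fis1 (-0.24), Uvssa (-0.22), Bmp2k (0.15), Klhl11 (-0.01) and Mpc2 (-0.15) were not called. No gene was the closest of more than 1 member.

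The same 9 genes were then read in kidney, a tissue that forms no red cells in the adult but holds blood. None of the 7 members tested was called there, where 11.5% of 19293 genes were called, and the 2 others had too few counts. Bnip3l (0.29, SE 0.098, edgeR adjusted p = 0.0338) and Riok3 (-0.19, SE 0.062, edgeR adjusted p = 0.0258) had an adjusted p under 0.05 with changes under 1.5-fold, as did many genes: 29.4% of all tested had such a p at any fold. With 1 library left out, the edgeR adjusted p reached up to 0.0744 for Bnip3l and 0.091 for Riok3. Without treated kidneys 2 and 4, Riok3 was at -0.18 (edgeR adjusted p = 0.0725). Riok3 measured 89.9, 96.1, 104, 89.9 and 98.8 CPM in vehicle kidneys and 82, 79.8, 83.9, 87.3 and 85.8 CPM in treated kidneys, groups that did not overlap, as was so for 11.0% of all genes in that direction. The log2 fold changes of the remaining tested members were 0.16 for Ulk1 (95% interval -0.01 to 0.32), 0.18 for Ube2o (0.03 to 0.33), 0.01 for Fundc1 (-0.17 to 0.18), -0.10 for Xpo7 (-0.24 to 0.03) and 0.34 for Tent5c (-0.12 to 0.80). Only the interval of Tent5c reaches past 1.5-fold.

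**Figure D4:**
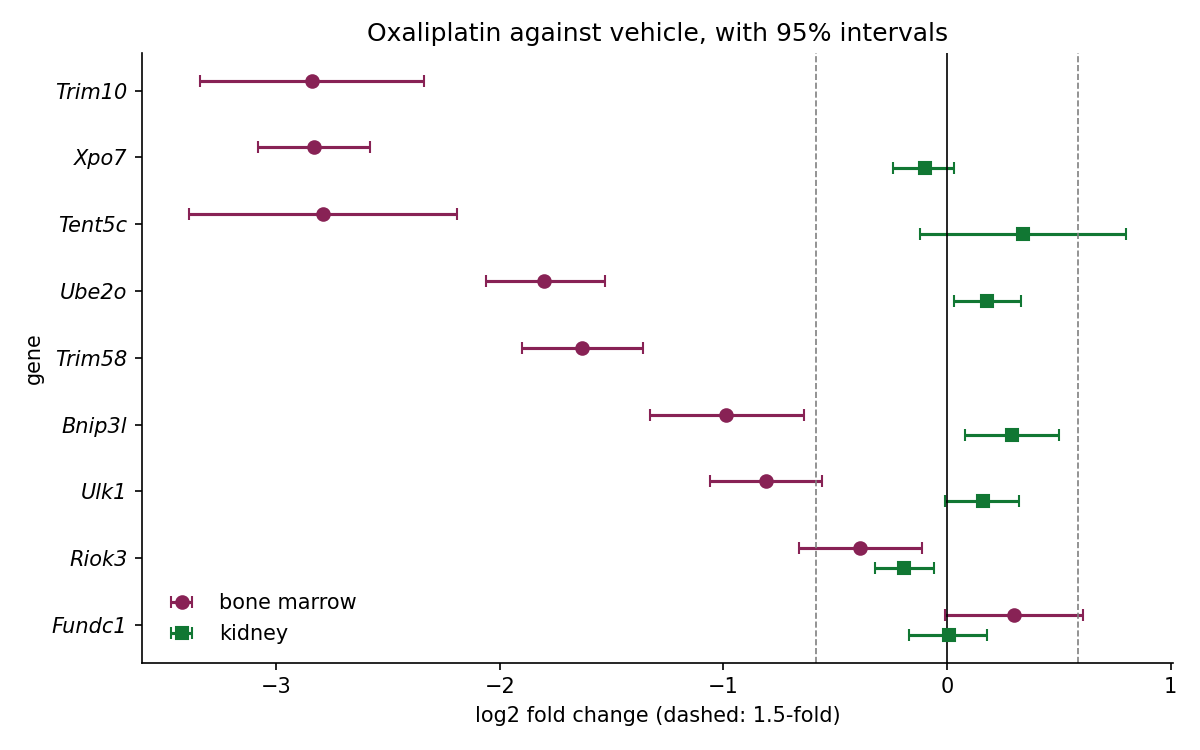
Log2 fold change, oxaliplatin against vehicle, with 95% intervals in bone marrow (circles) and kidney (squares), and dashed lines at 1.5-fold. In marrow the estimates of 7 members lie below the lower dashed line, while kidney values stay between -0.19 and 0.34, and Trim10 and Trim58 have no kidney point because they were not tested there.

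Trim58 had 0 counts in 7 of 10 kidney libraries and 4 at most, where the floor of 3 counts equals 0.0900 to 0.130 CPM. Trim10 had 0, 4, 0, 2 and 2 counts in vehicle kidneys and 0, 53, 16, 55 and 6 in treated kidneys. The higher counts were in treated mice 2 and 4. In an edgeR fit of all genes with any count, Trim10 had an unadjusted p of 0.0176 and an adjusted p of 0.0955. Tent5c was at 10.5, 20, 14.3, 22.2 and 9.66 CPM in treated kidneys and at 11.6, 12.3, 13.2, 11.7 and 11.7 CPM in vehicle kidneys, so that mice 2, 3 and 4 were above, and mice 1 and 5 below, every vehicle mouse. Bnip3l was at 114, 76.4, 92.8, 87.9 and 118 CPM in treated mice against 80.7, 79.4, 79, 78.1 and 82.4 CPM in vehicle mice. Treated mice 1 and 5 were highest, and only treated mouse 2 was below the vehicle range.

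The hemoglobin genes Hba-a1, Hba-a2, Hbb-bs and Hbb-bt also differed widely among the treated kidneys, with reads of the near-identical copies Hba-a1 and Hba-a2 uncertain between them. Their sum was 689 and 671 CPM in treated mice 2 and 4, 219 CPM in mouse 3, and 44.7 and 43.4 CPM in mice 1 and 5, with 250 to 417 CPM in the vehicle mice. Treated mouse 3 was thus below every vehicle mouse in this sum, although it was above every vehicle mouse for Tent5c. Alas2, the erythroid heme synthesis enzyme, was at 15.9 and 19.1 CPM in treated mice 2 and 4 and at 2.76 to 6.4 CPM in the other treated mice. The part of blood cells in the kidney values of Trim10, Tent5c and Bnip3l was not tested. Without treated mice 2 and 4 the Tent5c difference changed sign to -0.07 (edgeR adjusted p = 0.74) and that of Bnip3l became 0.45 (edgeR adjusted p = 6.8e-04), still under 1.5-fold. That fit kept treated mice 1 and 5, which had the lowest hemoglobin sums and the highest Bnip3l. Leaving out mice 1 and 5 was not tested, so the larger Bnip3l value is not a firmer one.

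**Figure D5:**
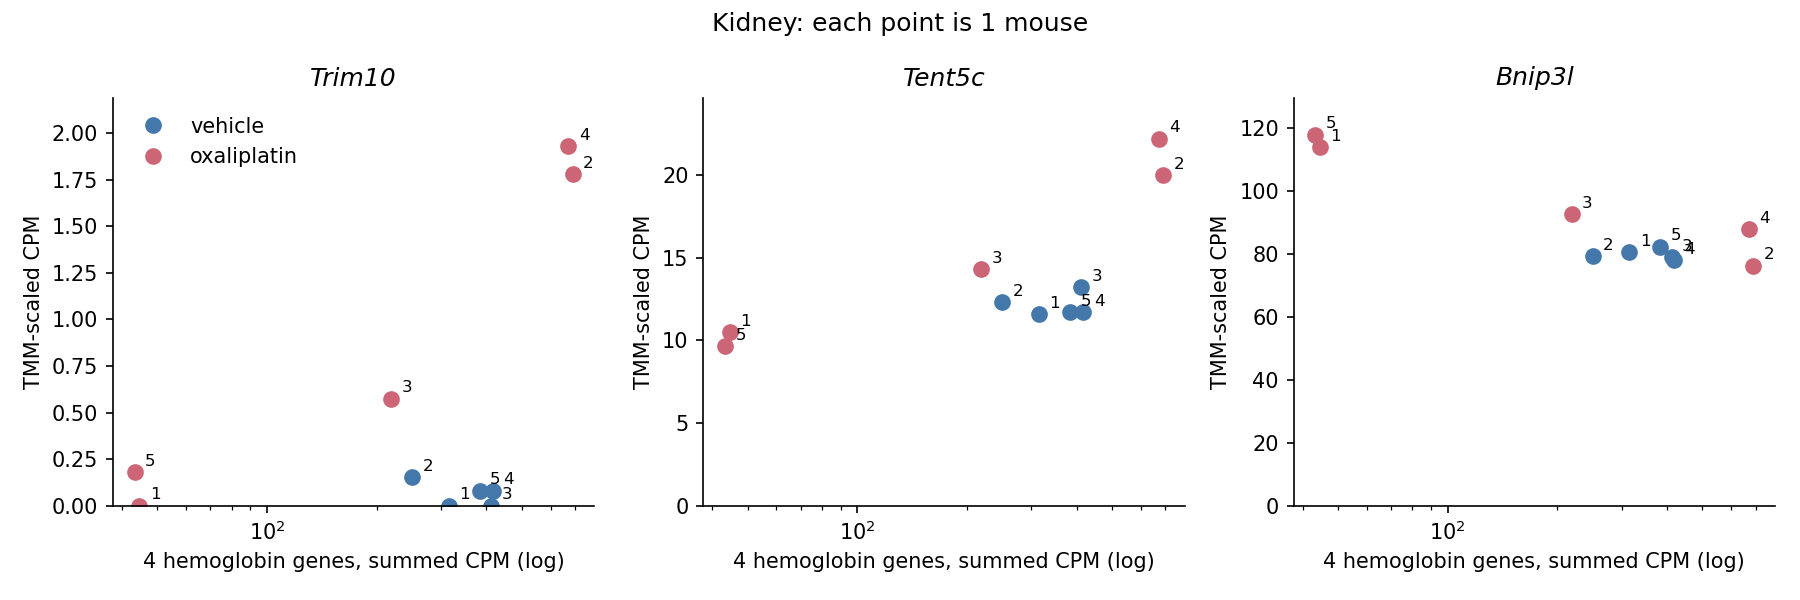
Kidney CPM of Trim10, Tent5c and Bnip3l against the summed CPM of 4 hemoglobin genes (log axis), 1 numbered point per mouse. Treated mice 2 and 4 are farthest right and highest for Trim10 and Tent5c, and treated mice 1 and 5 are farthest left and highest for Bnip3l (114 and 118 CPM).

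The difference between the tissues was tested as an interaction in 1 edgeR fit of all 20 libraries, taken as separate animals. Whether a marrow and a kidney library of the same number came from 1 mouse was not given in the sources used here, so mouse numbers name libraries within a tissue. Of 24321 genes tested, 10.8% had a marrow difference called lower than the kidney difference. The marrow difference was called lower for 6 of the 9 members, namely 5 of the 7 tested in both tissues and Trim10. It was lower by -3.08 for Tent5c (SE 0.35, edgeR adjusted p = 1.2e-06), -2.67 for Xpo7 (SE 0.12, 7.8e-13), -1.92 for Ube2o (SE 0.13, 7.9e-10), -1.22 for Bnip3l (SE 0.19, 3.8e-05) and -0.92 for Ulk1 (SE 0.14, 2.7e-05) on the log2 scale. Trim10 was also called, with an adjusted p of 6.8e-05 and no fold given, since its vehicle kidney counts were at or near the floor. Trim10 had too few counts to be tested in kidney alone. Like Trim58, it passed the filter of the joint fit only through marrow, so its call adds little about kidney. Without treated kidneys 2 and 4 its edgeR adjusted p for the interaction was 0.00486. The test did not call Riok3 (-0.14, 95% interval -0.41 to 0.13), Fundc1 (0.35, adjusted p = 0.125) or Trim58, for which the kidney counts carry little information (adjusted p = 0.0797). Trim58 came past the threshold when 1 of 3 kidney libraries was left out, vehicle 5 (adjusted p = 0.0213), treated 2 (0.0493) or treated 5 (0.0475), and by DESeq2 (0.03).

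In vehicle mice the members were mostly higher in marrow than in kidney. Tent5c was higher by 6.21 on the log2 scale (SE 0.3), Ube2o by 3.93 (SE 0.1), Xpo7 by 2.96 (SE 0.088), Bnip3l by 1.53 (SE 0.14) and Riok3 by 0.87 (SE 0.091), and Trim58 and Trim10 were called higher as well, with 2419 to 3463 and 8562 to 13799 counts in marrow against 4 at most in kidney. Trim58 and Trim10 passed the filter only through marrow, so their calls follow from their counts there. Across all genes 38.3% were called higher in marrow and 34.6% lower. Fundc1 was lower in marrow (-0.81, SE 0.12, edgeR adjusted p = 2.2e-06), but with library size alone as the scaling it was at -0.39 and under 1.5-fold. Ulk1 was not called (-0.11, 95% interval -0.31 to 0.09), and its sign turned to 0.31 with library size alone, a scaling that moved the median of all genes by 0.42. Per kilobase of exon, vehicle kidney had Bnip3l (20.7 ± 0.431, SD, n = 5) and Ulk1 (18.9 ± 1.45) at the top with overlapping ranges, followed by Riok3 (8.74 ± 0.56), Ube2o (6.8 ± 0.337), Fundc1 (6.73 ± 0.497), Xpo7 (5.09 ± 0.274) and Tent5c (1.98 ± 0.108), with only Ube2o and Fundc1 overlapping among these.

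Genes with related roles were read from 5 lists holding 87 genes, of which 84 were tested in each tissue. In marrow 25 of them (29.8%) were called, 4 higher and 21 lower, beside 23.3% of all genes tested. Of the 37 genes of the general autophagy machinery 3 were called higher and 6 lower, with a median log2 fold change of -0.08. Those lower included Atg4a (-1.82, SE 0.12) and Atg4d (-0.93, SE 0.084), proteases that process the LC3 and GABARAP proteins of the autophagosome, and the cargo receptor Optn (-1.26, SE 0.087). Those higher were Map1lc3a (0.83, SE 0.14) and Gabarapl1 (0.73, SE 0.14), which encode proteins of that family, and the conjugating enzyme gene Atg10 (0.72, SE 0.18). The edgeR adjusted p values of these 6 genes ran from 4.4e-07 for Atg4a to 0.0075 for Atg10.

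Of 12 other mitophagy genes 1 rose and 1 fell. Bnip3, the paralog of Bnip3l, went from 3.48 ± 0.425 to 15.3 ± 3.33 CPM (SD, n = 5), a log2 fold change of 2.14 (SE 0.17, edgeR adjusted p = 1.3e-06) opposite in sign to that of Bnip3l. Alox15, a lipoxygenase of reticulocytes that is also made by eosinophils and some macrophages, went from 104 ± 10.4 to 33.9 ± 14.6 CPM (-1.61, SE 0.31, edgeR adjusted p = 0.0018). The other 10 genes of the list were not called.

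Of 18 ubiquitin genes of the reticulocyte 6 fell and none rose. Ube2l6 (-2.43, SE 0.17), Ranbp10 (-2.03, SE 0.12) and Ube2h (-1.21, SE 0.13) fell most, the last a conjugating enzyme that works with the CTLH ligase complex of which RANBP10 is a part. Of 12 enucleation genes tested 7 fell and none rose, among them the erythroid transcription factor gene Klf1 (-1.65, SE 0.36), the nonmuscle myosin gene Myh10 (-1.63, SE 0.16) and the formin gene Diaph3 (-1.43, SE 0.12). The median log2 fold change was -0.39 over the 18 ubiquitin genes and -0.67 over the 12 enucleation genes. Icam4, also on the enucleation list, was at or under the floor in every marrow library and was not tested. Of 5 genes tested for ribosome rescue and messenger RNA tailing, Eif2ak1, the heme-regulated kinase that lowers globin translation, was lower (-1.29, SE 0.12) and the other 4 were not called. The edgeR adjusted p values of the 7 genes named here were between 1.9e-07 and 0.00439.

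In kidney 4 of the 84 genes tested were called (4.76%), beside 11.5% of all genes. Map1lc3a fell by 0.63 on the log2 scale (SE 0.12, edgeR adjusted p = 0.00193), the opposite direction from marrow. Foxo3, a transcription factor that drives autophagy genes in erythroblasts, was higher by 0.59 (SE 0.15, edgeR adjusted p = 0.0101), and Tent5b, a paralog of Tent5c, by 0.62 (SE 0.14, edgeR adjusted p = 0.00231). The fourth was Diaph3, higher by 1.54 (SE 0.36, edgeR adjusted p = 0.0037), which is named after its value was seen because its mean level was under the minimum for named genes. The differences between tissues for these list genes were not tested.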

How the data were processed

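RNA from bone marrow and kidney of oxaliplatin- and vehicle-treated mice was sequenced, per the submitters' labels after removal of ribosomal RNA. The study's methods name the Clontech SMARTer method for the library and mention no such removal. The authors deposited raw counts per gene in 1 table for each tissue. Per the study's methods, reads were aligned with STAR to Ensembl release 101 and uniquely aligned, unambiguous reads were counted in Partek Flow. The submitters' processing notes instead name featureCounts and Salmon beside STAR, and which route made the deposited counts, and the use of strand, were not given in the sources used here. Each table had 55774 lines, of which 287 repeated lines and 1 incomplete line were removed, leaving 55486 genes. Even counts were over-represented, with genes at 2 counts outnumbering those at 1 count by 2.1 to 3.21 times in all 20 libraries, so the counting precision is lower than totals of 24393007 to 41140527 counts imply. Positions came from the GENCODE M21 annotation of GRCm38, which held 55141 identifiers.

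Counts were tested with edgeR 4.0.16 (R 4.3.3) by glmQLFit with robust estimation and glmQLFTest, with TMM scaling and filterByExpr at a minimum count of 10, two-sided, inside each tissue, and over all 20 libraries for the interaction and the tissue comparison. P-values were adjusted by the Benjamini-Hochberg method over all genes tested. A gene was called at an adjusted p under 0.05 and more than 1.5-fold, the thresholds of the study. CPM are TMM-scaled, and the floor is 3 counts per library. For the erythroid scalings, each library was offset by the mean log2 CPM of the list in place of TMM. The script was tested on simulated data. The members and lists were chosen with earlier results of these data known. Of the 5 lists of related genes, up to 3 called rises and falls per list and tissue were named where the mean log2 CPM reached 1, and for each member the genes with the highest group-centred Pearson r. Alternatives were other scalings, filters and thresholds, DESeq2 1.42.0, a covariate from Y-linked genes, the replicate number as a block, and leaving out each library. Leaving out a pair of libraries was added after seeing the data. Sequence is not shown for every member, and protein sequence is not used here.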

Additional observations from a re-analysis of the deposited data

Results flagged for a closer look

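The treatment difference in bone marrow differed from that in kidney for 5 of the 7 members tested in both tissues, by the interaction test of the joint edgeR fit. Of all 24321 genes in that fit, 10.8% had a marrow difference called lower than the kidney difference. The marrow difference minus the kidney difference was -3.08 on the log2 scale for Tent5c, -2.67 for Xpo7, -1.92 for Ube2o, -1.22 for Bnip3l and -0.92 for Ulk1. For these genes every treated marrow was below every vehicle marrow, while the kidney groups overlapped.

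Trim58 in vehicle marrow had 1 mouse far from the others, mouse 5 at 78.6 CPM against 96.3 to 98.7 CPM in the other 4. It was the 1 such sample among 35 groups of mice examined, and 1 among so many can arise by chance. The groups share mice, so they are not independent.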

How the results depend on the processing

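The 7 marrow calls among the members were unchanged in number in every leave-one-out fit. They became 5 at more than 2-fold, where Bnip3l and Ulk1 lost their call, and 8 with adjusted p alone, where Riok3 gained one. With the call resting on adjusted p alone, calls went to 2 among kidney members, to 44 and 36 among the related genes in marrow and kidney, and at 2-fold the last counts were 13 and 1. The kidney count of related genes was 1 with the Y-linked covariate and 2 to 4 in leave-one-out fits, 2 without vehicle mouse 5 or without treated mouse 5. The tissue count was 5 when 10 counts were required in every library, a filter that removes Trim58 and Trim10 and takes Fundc1 under 1.5-fold. Signs that reversed belonged to values that were not called: Fundc1 in kidney (-0.02 without vehicle 2, vehicle 5 or treated 2, and -0.02 to 0.04 over all leave-one-out fits), Xpo7 in kidney (0.03, library size alone), Tent5c in kidney (-0.07 without treated 2 and 4), Ulk1 between tissues (0.31, library size alone; 0.12, 10 counts in every library; 0.07, Y-linked covariate), Trim10, Xpo7 and Tent5c on the late erythroid scale with the list median (0.02, 0.14 and 0.24), Tent5c on that scale (0.17) and Trim58 on the early scale (0.03) without marrow treated 3 and 4. The cause was not tested. Library size alone raised the share of higher calls from 49.6% to 63.4% in marrow and from 66.8% to 82.7% in kidney, with median shifts of 0.15 and 0.13. Mice with the same replicate number deviated together little within a tissue (correlations of -0.12 to 0.23 in marrow and -0.15 to 0.08 in kidney). Between treated marrow and treated kidney the correlations were -0.05 to 0.16. There 2 of 5 pairs were over 0.1, and 2 were highest with their own number. Between the vehicle tissues they were -0.05 to 0.02. No clear pairing by number was seen, but low correlations between tissues cannot exclude libraries from the same mouse. With the replicate number as a block, counts were 7 and 0 for members in marrow and kidney and 24 and 3 for the related genes. Low counts limit Trim58 and Trim10 in kidney.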
